A study of Homo sapiens with 8 samples.

Results

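The HOX cluster lncRNAs described here are 10 long noncoding RNAs transcribed from the HOXA, HOXC and HOXD clusters: HOTAIRM1, HOXA-AS2, HOXA-AS3, HOXA10-AS and HOTTIP of HOXA, HOTAIR and HOXC-AS3 of HOXC, and HAGLR, HAGLROS and HOXD-AS2 of HOXD. They were picked by name, with earlier results of these data known. Their Ensembl gene IDs matched them to the rows of 2 expression tables, 1 for each of 2 liver cancer cell lines. All 10 had values in all 8 libraries, among 15469 loci with values of 23161 listed. Values are in FPKM, which scales the sequenced fragments of a locus to its length and to the size of the library. In LM3 cells 9 members, and in HepG2 cells 7, averaged 0.5 FPKM or more over the line's 4 libraries, the level from which loci were tested. In LM3 the member below that level was HOXA-AS3, and in HepG2 HOXA-AS2, HOXA-AS3 and HOTAIR were below it.

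HOX genes encode homeodomain transcription factors that give cells their position along the body axis, and they sit in clusters whose order matches the order of their use. Between and across the coding genes run lncRNAs, mostly on the opposite strand, some of which act on chromatin. HOTTIP is known to bind WDR5 and to bring histone H3 lysine 4 methylation to the neighbouring 5′ HOXA genes, whereas HOTAIR is known to bind Polycomb repressive complexes and to act on distant genes. Several of these RNAs are known to be more abundant in tumours than in normal tissue, liver cancer included.

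The study measured lncRNAs in LM3 and HepG2 cells, which the labels call hepatocellular carcinoma lines, after exposure to JQ1 or to its vehicle DMSO. JQ1 inhibits the BET bromodomain proteins by keeping them from acetylated histones. The groups were LM3 with JQ1, LM3 with vehicle, HepG2 with JQ1 and HepG2 with vehicle, with 2 libraries in each, made from total RNA depleted of ribosomal RNA. The dose of JQ1 and the time of treatment are not given in the labels. Each line is a single cell line, and no label says that the 2 libraries of a group came from separate cultures, so the p-values rest on a spread between libraries that may be technical. The values are relative to all fragments of a library, so less of an RNA per cell and fewer cells with that RNA cannot be told apart.

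HOTAIRM1 lies on chromosome 7 at 27095647 to 27100265 on the plus strand (GRCh38, as for all positions here). The tables also list LXLOC_049465, a locus of the authors' own at 27096094 to 27100265 on the same strand, which holds nearly all of HOTAIRM1. The sequences that follow belong to 3 of the members that fell.
HOXA10-AS (chromosome 7, 27168619 to 27171915, plus strand) runs against HOXA9 and HOXA10, and 62.3% of its 1654 exonic bases are also exonic in these genes. The first exon of 1 of its transcripts, 95 bases at chr7:27168899-27168993 on the plus strand, holds no base of a HOXA9 or HOXA10 exon and is printed for that reason, in lower case throughout.
HOXA10-AS first exon: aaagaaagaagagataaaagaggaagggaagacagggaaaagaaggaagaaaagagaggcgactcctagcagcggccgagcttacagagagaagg
In RefSeq the start of HAGLROS lies back to back with that of a HAGLR transcript on the other strand of chromosome 2. The windows from 250 bases before to 50 bases after these RefSeq starts share 136 bases. The HAGLROS locus measured here runs from 176177717 to 176179008, so its window lies within the locus and not at its start. The HAGLROS window, chr2:176177916-176178215 on the plus strand in RefSeq (GRCh38.p14), is printed because HAGLROS fell in HepG2. The window of HOXD-AS2, which fell in LM3, is chr2:176137049-176137348 on the minus strand. Capitals mark matches to CACGTG (an E-box) in the HAGLROS window and to CCAAT or its reverse complement in the HOXD-AS2 window.
HAGLROS: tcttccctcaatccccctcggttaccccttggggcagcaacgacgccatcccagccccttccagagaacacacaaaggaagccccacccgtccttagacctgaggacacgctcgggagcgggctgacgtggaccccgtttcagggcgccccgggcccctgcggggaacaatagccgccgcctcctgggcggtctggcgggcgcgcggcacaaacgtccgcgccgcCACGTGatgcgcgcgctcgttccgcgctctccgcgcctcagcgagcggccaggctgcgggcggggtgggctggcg
HOXD-AS2: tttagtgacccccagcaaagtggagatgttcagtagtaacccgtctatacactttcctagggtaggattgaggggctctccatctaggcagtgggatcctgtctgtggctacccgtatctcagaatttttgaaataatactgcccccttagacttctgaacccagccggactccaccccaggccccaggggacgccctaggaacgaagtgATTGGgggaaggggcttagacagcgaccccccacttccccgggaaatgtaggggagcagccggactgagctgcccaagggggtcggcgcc

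HOTAIRM1 was the most abundant member in both lines, and the others stood far below it in LM3. In vehicle libraries HOTAIRM1 had 16.64 and 15.78 FPKM in LM3 and 4.14 and 4.37 FPKM in HepG2. In LM3 it was followed by HOXA-AS2, HAGLROS, HOXD-AS2, HOXA10-AS, HOXC-AS3, HOTAIR, HOTTIP, HAGLR and HOXA-AS3, by mean vehicle FPKM. Neighbours in that order whose vehicle libraries did not overlap were HOTAIRM1 and HOXA-AS2, HAGLROS and HOXD-AS2, HOXD-AS2 and HOXA10-AS, and HAGLR and HOXA-AS3. In HepG2 the order was HOTAIRM1, HOTTIP, HOXD-AS2, HOXA10-AS, HOXC-AS3, HAGLROS, HAGLR, HOTAIR, HOXA-AS2 and HOXA-AS3, and the members from HOXC-AS3 to HOTAIR each overlapped the next. HOXA-AS2 thus stood second in LM3, at 2.32 ± 0.488 FPKM with vehicle (mean ± SD, n = 2, as for all means here), and ninth in HepG2, at 0.50 ± 0.212 FPKM. Levels in the 2 lines come from separate tables, which may have been normalized separately, so their difference was not tested.

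**Figure D1:**
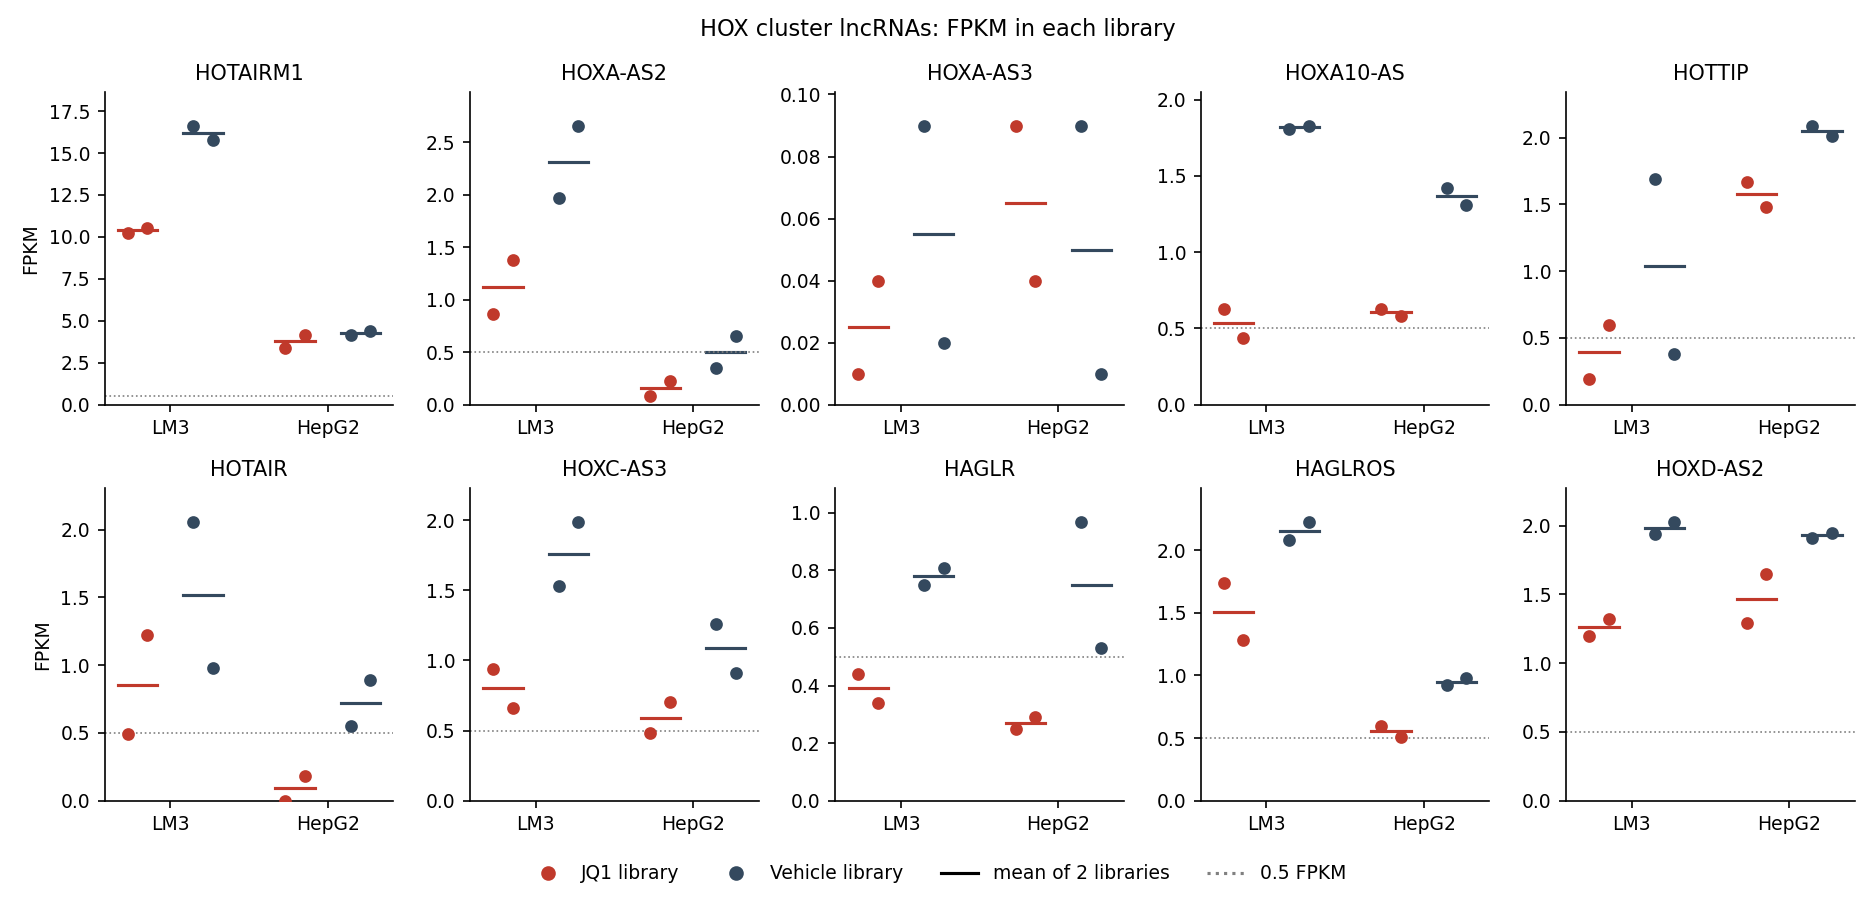
FPKM of the 10 members in each library, 1 panel per member with its own axis from 0. Within each line the 2 JQ1 libraries (red) stand left of the 2 vehicle libraries (dark), short lines are means of 2 libraries, and the dotted line is 0.5 FPKM. The JQ1 libraries lie below both vehicle libraries for 7 members in LM3 and for 8 in HepG2. Among members tested it is 7 of 9 in LM3 and 6 of 7 in HepG2, against 39.7% and 33.9% of all loci tested.

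HOTAIRM1, known as a regulator of HOXA genes in myeloid differentiation, fell in LM3 with JQ1. Its values were 10.25 and 10.55 FPKM in LM3 with JQ1, against 16.64 and 15.78 FPKM in LM3 with vehicle. The groups were far apart relative to their spread, with a log2 fold change of -0.62 (SE 0.082; limma, Benjamini-Hochberg adjusted p = 0.0145). This and all other fold changes are on the scale of log2(FPKM + 0.5), which understates the change of low loci. In HepG2 HOTAIRM1 had 3.37 and 4.18 FPKM with JQ1, against 4.14 and 4.37 FPKM with vehicle. The groups overlapped there, at a log2 fold change of -0.16 (SE 0.12; limma adjusted p = 0.382).

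HOXA-AS2 (chromosome 7, 27107777 to 27134302, plus strand), which lies across from HOXA3, had 0.86 and 1.38 FPKM in LM3 with JQ1, against 1.97 and 2.66 FPKM in LM3 with vehicle. Both JQ1 libraries were lower, but the log2 fold change of -0.81 did not pass the threshold (SE 0.22; limma adjusted p = 0.0641). It passed with replicate numbers as a block (limma adjusted p = 0.0216). In HepG2 the values were 0.08 and 0.23 FPKM with JQ1, against 0.35 and 0.65 FPKM with vehicle, too low to be tested. HOXA-AS3 (27129977 to 27155928, plus strand), which overlaps HOXA-AS2 on the same strand by 4326 bases, was barely present. It had 0.01 and 0.04 FPKM in LM3 with JQ1, against 0.09 and 0.02 FPKM in LM3 with vehicle, and 0.09 and 0.04 FPKM in HepG2 with JQ1, against 0.09 and 0.01 FPKM in HepG2 with vehicle. Its groups overlapped in both lines. Of the exonic bases of HOXA-AS3 39.1% are also exonic in coding HOXA genes, as are 11.9% of those of HOXA-AS2. The limit on strand given below for HOXA10-AS thus holds for both.

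HOXA10-AS, antisense to HOXA9 and HOXA10, fell in both lines. It had 0.63 and 0.44 FPKM in LM3 with JQ1, against 1.81 and 1.83 FPKM in LM3 with vehicle. The JQ1 mean was 29.4% of the vehicle mean in LM3 (log2 fold change -1.17, SE 0.13; limma adjusted p = 0.0111). In HepG2 it had 0.63 and 0.58 FPKM with JQ1, against 1.42 and 1.31 FPKM with vehicle. There the JQ1 mean was 44.3% of the vehicle mean (log2 fold change -0.75, SE 0.094; limma adjusted p = 0.0116). The levels of HOXA10-AS under JQ1 were thus close in the 2 tables. The sources used here do not say whether counting used the strand, so fragments of HOXA10-AS and of the HOXA9 and HOXA10 exons it crosses cannot be told apart.

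HOTTIP (chromosome 7, 27198575 to 27207259, plus strand), at the HOXA13 end of the cluster, had 0.19 and 0.60 FPKM in LM3 with JQ1, against 1.69 and 0.38 FPKM in LM3 with vehicle. The groups overlapped, since the second vehicle library lay below the second JQ1 library, and the log2 fold change of -0.67 carried an SE of 0.51 (limma adjusted p = 0.384). It ran from -1.33 without the second vehicle library to -0.01 without the first. In HepG2 HOTTIP had 1.67 and 1.48 FPKM with JQ1, against 2.09 and 2.01 FPKM with vehicle. Both JQ1 libraries were lower in HepG2, at a log2 fold change of -0.30 (SE 0.094; limma adjusted p = 0.0841).

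Of the HOXC members, HOXC-AS3 fell in LM3, and HOTAIR passed no test on its own row. HOTAIR (chromosome 12, 53962308 to 53974956, minus strand) had 0.49 and 1.22 FPKM in LM3 with JQ1, against 2.06 and 0.98 FPKM in LM3 with vehicle. The groups overlapped (log2 fold change -0.58, SE 0.39; limma adjusted p = 0.331), and leaving out 1 library moved the log2 fold change to between -0.98 and -0.18. In HepG2 HOTAIR was listed at 0 in 1 JQ1 library and at 0.18 FPKM in the other, against 0.55 and 0.89 FPKM with vehicle, and stayed below the level tested. HOXC-AS3 (chromosome 12, 53981509 to 53985519, minus strand), which starts near HOXC10 on the other strand, had 0.94 and 0.66 FPKM in LM3 with JQ1, against 1.53 and 1.99 FPKM in LM3 with vehicle. Both JQ1 libraries were lower (log2 fold change -0.80, SE 0.17; limma adjusted p = 0.0387). In HepG2 HOXC-AS3 had 0.48 and 0.70 FPKM with JQ1, against 1.26 and 0.91 FPKM with vehicle. These groups did not overlap either, but the log2 fold change of -0.54 missed the threshold (SE 0.17; limma adjusted p = 0.0847). The LM3 call of HOXC-AS3 was lost without a filter on low values (limma adjusted p = 0.0765) and with replicate numbers as a block (limma adjusted p = 0.0599).

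Among the HOXD members, HOXD-AS2 fell in LM3 and HAGLROS in HepG2. HOXD-AS2 (chromosome 2, 176121611 to 176137098, minus strand), antisense to HOXD3, had 1.20 and 1.32 FPKM in LM3 with JQ1, against 1.94 and 2.03 FPKM in LM3 with vehicle. The LM3 groups were clearly apart (log2 fold change -0.50, SE 0.093; limma adjusted p = 0.0285). In HepG2 it had 1.29 and 1.65 FPKM with JQ1, against 1.91 and 1.95 FPKM with vehicle, which did not overlap either. The log2 fold change in HepG2 was -0.31 (SE 0.12; limma adjusted p = 0.132), and between -0.44 and -0.18 with 1 library left out. Of its 1429 exonic bases 26.5% are also exonic in HOXD3, so the limit on strand holds here too. The LM3 call was lost without a filter on low values (limma adjusted p = 0.0615) and with Ensembl loci alone (limma adjusted p = 0.0510).

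HAGLR (chromosome 2, 176164051 to 176188958, minus strand), also called HOXD-AS1, and HAGLROS (176177717 to 176179008, plus strand) overlap on opposite strands, HAGLROS wholly within HAGLR, so strand would be needed to assign fragments where both are transcribed. HAGLROS had 1.74 and 1.28 FPKM in LM3 with JQ1, against 2.08 and 2.23 FPKM in LM3 with vehicle. Both JQ1 libraries were lower, without passing the threshold (log2 fold change -0.41, SE 0.14; limma adjusted p = 0.108). In HepG2 HAGLROS had 0.60 and 0.51 FPKM with JQ1, against 0.92 and 0.98 FPKM with vehicle. That difference passed (log2 fold change -0.46, SE 0.099; limma adjusted p = 0.0354). It did not pass without the filter on low values, with libraries centred on their medians or with Ensembl loci alone (limma adjusted p = 0.0814, 0.0507 and 0.0579). HAGLR had 0.44 and 0.34 FPKM in LM3 with JQ1, against 0.75 and 0.81 FPKM in LM3 with vehicle. In HepG2 it had 0.25 and 0.29 FPKM with JQ1, against 0.97 and 0.53 FPKM with vehicle. Its JQ1 libraries were the lower ones in both lines, and neither log2 fold change passed, at -0.53 in LM3 (SE 0.14; limma adjusted p = 0.0572) and -0.68 in HepG2 (SE 0.21; limma adjusted p = 0.0797). In LM3 HAGLR passed without trend and robust fitting (limma adjusted p = 0.0369), and in HepG2 without the second vehicle library (limma adjusted p = 0.0452).

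Across the members, 4 of 9 tested fell in LM3, namely HOXA10-AS, HOTAIRM1, HOXD-AS2 and HOXC-AS3, and none rose, where 15.4% of the 6474 loci tested fell and 7.92% rose. In HepG2, 2 of 7 fell, HOXA10-AS and HAGLROS, and none rose, where 14.2% of 5906 loci fell and 10.8% rose. Of the 10 members with values, 7 in LM3 and 8 in HepG2 had both JQ1 libraries below both vehicle libraries, and none had both above. Among the members tested, it was 7 of 9 in LM3 and 6 of 7 in HepG2. Over all tested loci both JQ1 libraries were below both vehicle libraries for 39.7% in LM3 and 33.9% in HepG2, and above them for 27.0% in LM3 and 32.4% in HepG2. The log2 fold change was below 0 for 9 of 9 members tested in LM3, with a median of -0.62, and for 7 of 7 in HepG2, with a median of -0.46, where 57.4% of all loci tested in LM3 and 50.4% in HepG2 were below 0. The same medians over all loci tested were -0.08 in LM3 and -0.01 in HepG2, and over the loci with an Ensembl ID -0.15 and -0.05. Because the members were chosen with earlier results of these data known, these shares and medians describe the list and test nothing about it. In both lines the split over all loci depends on scaling. As deposited, 998 loci fell and 513 rose in LM3, and 840 fell and 640 rose in HepG2. With centred libraries 770 fell and 700 rose in LM3, and 786 fell and 809 rose in HepG2. With quantile normalization 732 fell and 715 rose in LM3, and 818 fell and 758 rose in HepG2. The members called were 4 each time in LM3, and 2, 1 and 2 in HepG2. The filter on the mean of 4 libraries let some members through on their vehicle libraries, such as HAGLR in HepG2, with a mean of 0.51 FPKM over 4 libraries and 0.27 FPKM over the JQ1 libraries. Leaving out any 1 of the 4 LM3 libraries left no locus called in LM3, and leaving out either JQ1 library did so in HepG2. Without the first HepG2 vehicle library no member was called, and without the second HOXA10-AS and HAGLR were.

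**Figure D2:**
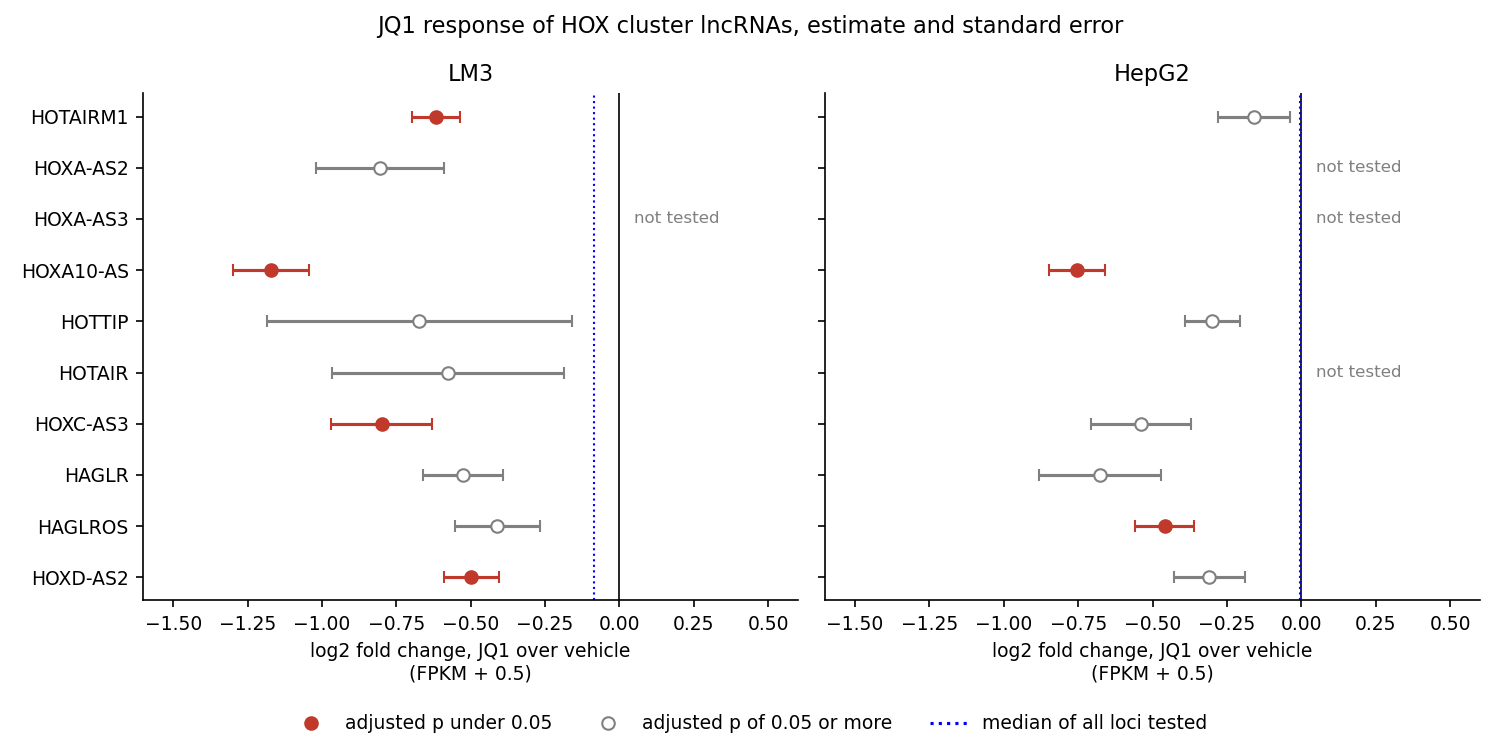
Log2 fold changes, JQ1 over vehicle, on log2(FPKM + 0.5) for the 10 members in LM3 (left) and HepG2 (right), with bars of 1 standard error from limma. Filled red points have an adjusted p under 0.05, open grey points do not, and the dotted blue line is the median of all loci tested. Every point drawn lies left of 0, and HOXA10-AS is filled in both panels.

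No member's response to JQ1 was shown to differ between the lines. Of the 7 members tested for a difference none passed, where 0.218% of 5035 loci did (11 loci), and 2 had an unadjusted p under 0.05 in limma, as 12.0% of the loci did. These were HOTAIRM1, whose log2 fold change was lower in LM3 than in HepG2 by 0.46 (difference -0.46, SE 0.15; limma adjusted p = 0.317), and HOXA10-AS, with a difference of -0.42 (SE 0.15; limma adjusted p = 0.369). The other differences, LM3 minus HepG2, were -0.37 for HOTTIP, -0.26 for HOXC-AS3, -0.19 for HOXD-AS2, 0.05 for HAGLROS and 0.15 for HAGLR. Their standard errors ran from 0.149 for HOXD-AS2 to 0.595 for HOTTIP. Even the difference of -0.46 for HOTAIRM1 did not pass. Differences of the size of several of the falls themselves could thus be missed, most of all for HOTTIP. That no member passed does not show that the lines respond alike. The median difference was -0.26 over these members and -0.07 over all loci tested.

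For 4 members the tables hold a second row on the same strand that lies wholly within or exactly on the member, under an LXLOC name. LXLOC_013318 has the same start and end as HOTAIR, and LXLOC_049466 the same as HOXA-AS2, while LXLOC_049471 covers all but the first stretch of HOTTIP and LXLOC_049465 all but the first stretch of HOTAIRM1. How fragments were divided among such rows is not given in the sources used here. LXLOC_013318 had 1.30 and 0.66 FPKM in LM3 with JQ1, against 1.58 and 2.19 FPKM in LM3 with vehicle, and 0.53 and 0.33 FPKM in HepG2 with JQ1, against 0.76 and 0.37 FPKM in HepG2 with vehicle. In each of the 4 groups the library with the higher HOTAIR value had the lower LXLOC_013318 value. The LXLOC row held 72.6% and 35.1% of the sum of both rows in LM3 with JQ1, against 43.4% and 69.1% in LM3 with vehicle.

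Summing the rows, an alternative added after these values were seen, brought the HOTAIR libraries of a group close together. The sum was 1.79 and 1.88 FPKM in LM3 with JQ1, against 3.64 and 3.17 FPKM in LM3 with vehicle. In HepG2 it was 0.53 and 0.51 FPKM with JQ1, against 1.31 and 1.26 FPKM with vehicle. With the sum in place of the single row HOTAIR passed in LM3 (log2 fold change -0.74, SE 0.10; limma adjusted p = 0.0158, against 0.316 to 0.464 under the other settings tried with all libraries) and in HepG2 (log2 fold change -0.81, SE 0.088; limma adjusted p = 0.00959). On its own row HOTAIR was tested in HepG2 only without the filter on low values (limma adjusted p = 0.0785).

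HOTAIRM1 and its overlapping row did not move together. LXLOC_049465 had 5.45 and 4.97 FPKM in LM3 with JQ1, against 4.42 and 3.87 FPKM in LM3 with vehicle, the opposite order to HOTAIRM1, without passing the threshold (log2 fold change 0.30, SE 0.11; limma adjusted p = 0.113). In HepG2 it had 1.60 and 1.32 FPKM with JQ1, against 1.33 and 0.97 FPKM with vehicle (log2 fold change 0.25, SE 0.15; limma adjusted p = 0.284). Its share of the sum was 34.7% and 32.0% in LM3 with JQ1, against 20.99% and 19.69% in LM3 with vehicle. The summed rows came to 15.70 and 15.52 FPKM in LM3 with JQ1, against 21.06 and 19.65 FPKM in LM3 with vehicle. The log2 fold change of HOTAIRM1 in LM3 thus became -0.37 in place of -0.62, and still passed (SE 0.084; limma adjusted p = 0.0427, against 0.0117 to 0.0327 under the other settings tried with all libraries). In HepG2 the sums were 4.97 and 5.50 FPKM with JQ1, against 5.47 and 5.34 FPKM with vehicle. These groups overlapped (log2 fold change -0.04, SE 0.086; limma adjusted p = 0.742).

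With sums for all 4 members, 6 of 9 fell in LM3 and 4 of 8 in HepG2, where 15.4% of 6474 loci and 14.3% of 5907 loci fell. HOTTIP summed with LXLOC_049471 had 2.21 and 2.14 FPKM in HepG2 with JQ1, against 2.93 and 2.83 FPKM in HepG2 with vehicle. It passed there (log2 fold change -0.34, SE 0.080; limma adjusted p = 0.0440, against 0.0603 to 0.154 under the other settings tried with all libraries). In LM3 the HOTTIP sums of 0.55 and 0.82 FPKM with JQ1 lay below those of 1.91 and 1.03 FPKM with vehicle, and the test did not pass (log2 fold change -0.71, SE 0.27; limma adjusted p = 0.126). HOXA-AS2, whose second row held at most 0.11 FPKM in LM3, came just under the threshold there (log2 fold change -0.78, SE 0.19; limma adjusted p = 0.0498, against 0.0216 to 0.116 under the other settings tried with all libraries).

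**Figure D3:**
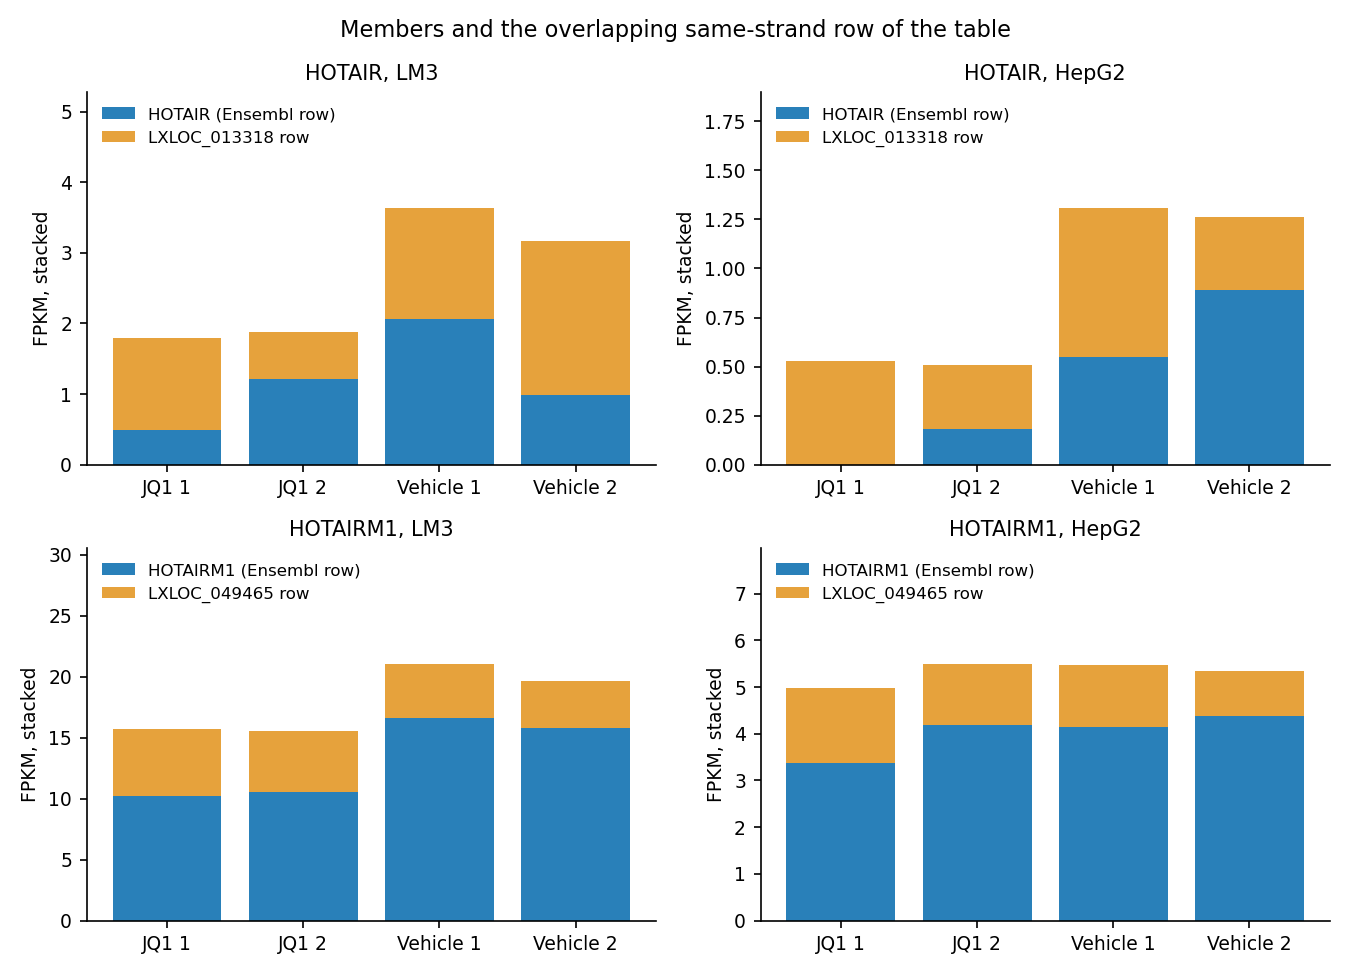
FPKM of HOTAIR (top) and HOTAIRM1 (bottom) stacked with the overlapping same-strand row, for each library of LM3 (left) and HepG2 (right), with the JQ1 libraries left of the vehicle libraries. The blue and orange parts of the HOTAIR bars trade places between libraries of 1 group while the bar heights stay close, and the orange part of the HOTAIRM1 bars is the larger in the LM3 JQ1 libraries.

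In LM3 the other named HOX lncRNAs did not all go the way of the members. Of 11 further named HOX lncRNAs in the tables, 9 had values, and 4 in LM3 and 3 in HepG2 were abundant enough to be tested. Both JQ1 libraries lay below both vehicle libraries for 1 of the 9 in LM3 and 5 in HepG2. Among those tested it was 1 of 4 in LM3 and 2 of 3 in HepG2, where 39.7% and 33.9% of all loci tested did so. Both lay above for 1 of the 9 in LM3 and 0 in HepG2, where 27.0% and 32.4% of all loci tested did so. LINC01116, on chromosome 2 outside the HOXD window, fell in LM3 with 2.26 and 1.69 FPKM with JQ1, against 4.60 and 4.62 FPKM with vehicle (log2 fold change -1.06, SE 0.14; limma adjusted p = 0.0148). In HepG2 LINC01116 had 0.29 and 0.22 FPKM with JQ1, against 0.51 and 0.47 FPKM with vehicle, too low to be tested. None of the other named ones tested passed in either line, where 15.4% of all loci tested in LM3 and 14.2% in HepG2 fell. HOXA11-AS (chromosome 7, 27184507 to 27189298, plus strand), which lies between HOXA10-AS and HOTTIP and is transcribed in the same direction, had 8.11 and 8.07 FPKM in LM3 with JQ1, against 6.67 and 6.24 FPKM in LM3 with vehicle. Both JQ1 libraries of HOXA11-AS were higher, just short of the threshold (log2 fold change 0.31, SE 0.084; limma adjusted p = 0.0657). In HepG2 HOXA11-AS had 4.68 and 5.56 FPKM with JQ1, against 5.24 and 5.35 FPKM with vehicle (log2 fold change -0.05, SE 0.11; limma adjusted p = 0.767). HOXC13-AS had 2.42 and 2.11 FPKM in LM3 with JQ1, against 2.23 and 2.74 FPKM in LM3 with vehicle, with overlapping groups. In HepG2 it had 1.97 and 1.64 FPKM with JQ1, against 2.62 and 2.15 FPKM with vehicle (limma adjusted p = 0.144). HOXC-AS2 had 0.61 and 0.95 FPKM in LM3 with JQ1, against 0.75 and 0.91 FPKM in LM3 with vehicle, and at most 0.33 FPKM in HepG2.

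**Figure D4:**
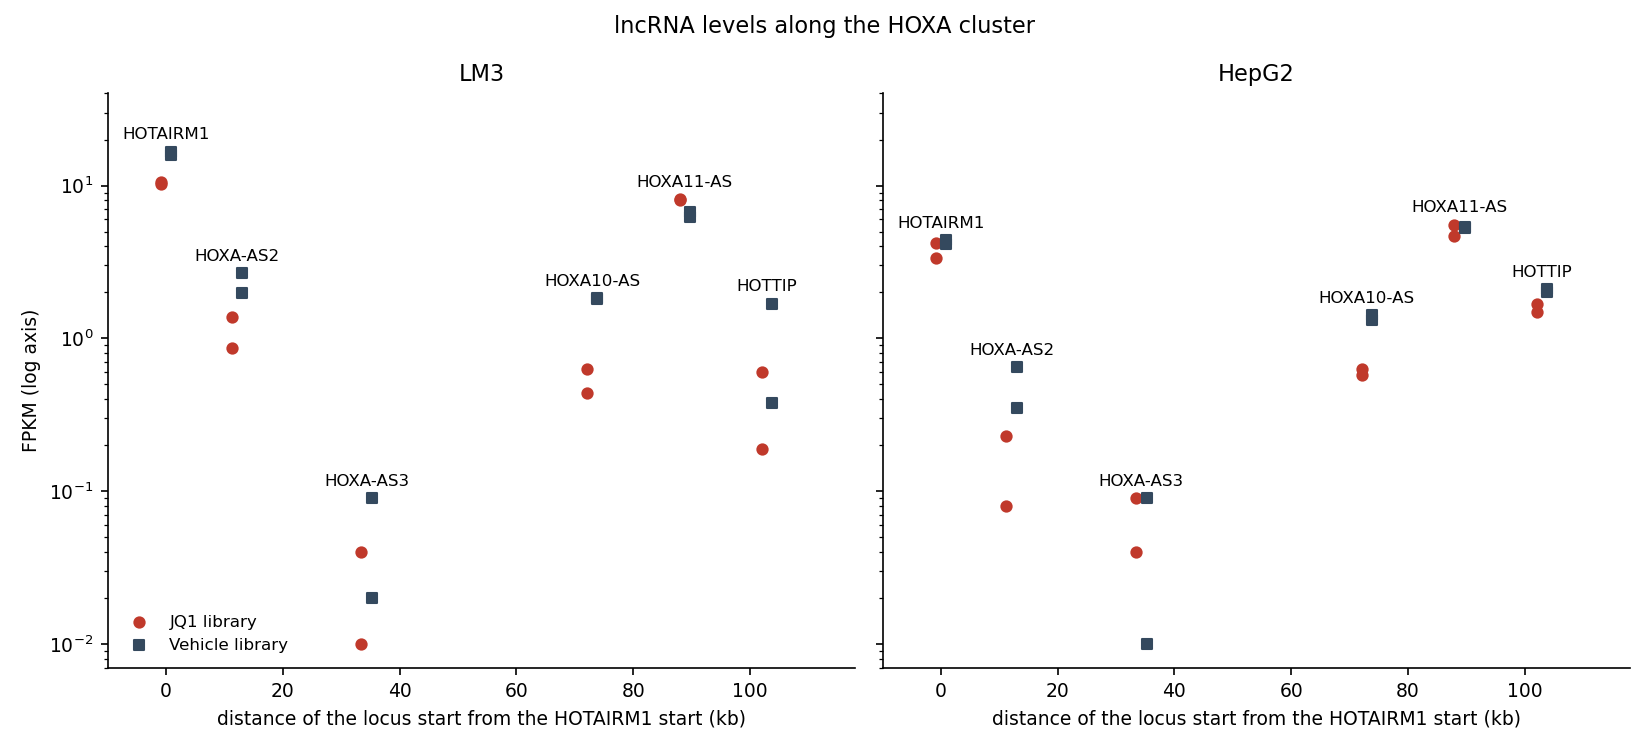
FPKM, on a log axis, of the HOXA members and HOXA11-AS against the distance of each locus start from the HOTAIRM1 start, in LM3 (left) and HepG2 (right). Red circles are JQ1 libraries, drawn just left of the dark squares of the vehicle libraries. HOXA11-AS alone has both JQ1 libraries above both vehicle libraries in LM3, between HOXA10-AS and HOTTIP.

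Of the 19 loci in the 4 cluster windows that carry no listed name, 13 had values. In LM3 4 of these were tested and 1 fell, and in HepG2 5 were tested and 3 fell, where 15.4% of all loci tested in LM3 and 14.2% in HepG2 fell. None rose in either line. The tested loci included second rows of members, so they are not all separate from the members. These were LXLOC_049465 and LXLOC_013318 in LM3 and LXLOC_049465 and LXLOC_049471 in HepG2, and none of them passed. The HOXC locus ENSG00000260597 (chromosome 12, 54019910 to 54022589, plus strand) fell in both lines, with 3.73 and 3.24 FPKM in LM3 with JQ1, against 5.52 and 5.16 FPKM in LM3 with vehicle, and 2.38 and 1.98 FPKM in HepG2 with JQ1, against 3.15 and 3.25 FPKM in HepG2 with vehicle (limma adjusted p = 0.0293 and 0.0393). In the HOXB cluster, which holds no member, LINC03057 had 7.19 and 8.15 FPKM in LM3 with JQ1, against 9.93 and 10.05 FPKM in LM3 with vehicle (limma adjusted p = 0.0607). In HepG2 it fell, with 3.05 and 3.32 FPKM with JQ1, against 4.83 and 4.69 FPKM with vehicle (limma adjusted p = 0.0195). LXLOC_023295, also of HOXB, was listed at 0 in all LM3 libraries and fell in HepG2, with 0.64 and 0.55 FPKM with JQ1, against 2.42 and 1.57 FPKM with vehicle (limma adjusted p = 0.0202). The other loci with the highest means of their clusters, ENSG00000257178, LXLOC_023298, ENSG00000273046 and ENSG00000270182, stayed at or below 0.36 FPKM in every library.

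RefSeq start windows were found for 6 of the 10 members, 9 windows in all, 4 of them for HAGLR. RefSeq starts can lie away from those of the loci measured. The HOXA-AS2 window begins at 27121669 and the locus at 27107777, the HOXA-AS3 window at 27146913 and the locus at 27129977. The HOTTIP window begins at 27200171 and the locus at 27198575. For these, as for HAGLROS, the window does not lie at the start of the measured locus. CACGTG was in 3 of the 9, against 7.26% of 35116 windows of all genes. Those 3 were the HAGLROS window, the HAGLR window that overlaps it and shares the same site, and 1 further HAGLR window. CCAAT or its reverse complement ATTGG was in 5 of the 9, against 34.6% of all windows. TATAAA and AGGTCA, searched on both strands like the others, were in none of the 9, against 11.5% and 13.8% of all windows. The 9 windows had medians of 71.0% G and C and 31 CpG pairs, against medians of 58.7% and 14 over all windows. The HOTTIP window had 78.0% G and C with 41 CpG pairs, and the HOXA-AS2 window 36.0% with 3. The shares of windows with a motif do not take this difference in base content into account. These matches describe letters only.

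The loci most like the 3 most abundant members, by Pearson's r of log2(FPKM + 0.5) over the 8 libraries among 819 named Ensembl loci past the filter in both lines, were as follows. HOTAIRM1 was most like ANXA2R-AS1 (r = 0.996), MAP3K2-DT (0.993) and STX17-DT (0.991). MAP3K2-DT averaged 7.35 FPKM in LM3 with JQ1, against 10.27 FPKM in LM3 with vehicle. HOXD-AS2 was most like PARTICL (r = 0.966), LINC00623 (0.964) and STX18-AS1 (0.953). HAGLROS was most like LINC01089 (r = 0.994), SNHG14 (0.984) and LINC00628 (0.984). The 8 points fall into 4 groups of 2 libraries and come from separate tables, so r describes differences between lines as well as between treatments.

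The FPKM of a library summed to between 29369 and 35742, and 11230 to 12332 loci were above 0, the fewest in 1 LM3 JQ1 library. The share of FPKM at ribosomal RNA and mitochondrial loci was 21.2% and 22.8% in LM3 with JQ1, against 18.9% and 19.6% in LM3 with vehicle, and 17.1% and 18.1% in HepG2 with JQ1, against 15.3% and 15.9% in HepG2 with vehicle. Rescaling to the sum outside these loci left 4 members called in LM3 and 2 in HepG2.

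Of 15 hepatocyte lncRNAs listed, 9 had values, and 3 in LM3 and 4 in HepG2 reached a mean of 0.5 FPKM. The liver-associated H19 stood between 309.7 and 348.1 FPKM in LM3 and between 2037.7 and 2248.7 FPKM in HepG2, and its groups overlapped in both lines. Without H19 the values of the list summed to 1.29 and 1.15 FPKM in LM3 with JQ1, against 2.18 and 2.48 FPKM in LM3 with vehicle, and to 2.70 and 2.82 FPKM in HepG2 with JQ1, against 9.43 and 9.61 FPKM in HepG2 with vehicle. The JQ1 libraries thus had the lower sums in both lines, as they did for most HOX members, and the part of this in the members' values was not tested. CPS1-IT1 took up most of that difference, with 0.41 and 0.26 FPKM in LM3 with JQ1, against 1.34 and 1.41 FPKM in LM3 with vehicle, and 1.33 and 1.22 FPKM in HepG2 with JQ1, against 6.84 and 6.79 FPKM in HepG2 with vehicle. LINC00261, another lncRNA of liver cells, had 0.05 and 0.08 FPKM in HepG2 with JQ1, against 0.48 and 0.64 FPKM in HepG2 with vehicle, and 0 to 0.06 FPKM in LM3. LINC01485 had 0.28 and 0.46 FPKM in HepG2 with JQ1, against 0.98 and 0.94 FPKM in HepG2 with vehicle. Not all of the list went down. LINC01554 had 0.30 and 0.31 FPKM in HepG2 with JQ1, against 0.21 and 0.21 FPKM with vehicle. In LM3 it had 0.25 and 0.18 FPKM with JQ1, against 0.15 and 0.14 FPKM with vehicle. LINC00844 had 0.06 FPKM in both HepG2 JQ1 libraries, against 0.04 and 0.03 FPKM with vehicle, and its groups overlapped in LM3. HULC, known for its abundance in liver cancer, had overlapping groups in LM3, and in HepG2 0.55 and 0.65 FPKM with JQ1, against 0.63 and 0.80 FPKM with vehicle, which overlapped too. Of the 5 leukocyte lncRNAs 4 had values and only LINC00926 reached that mean, at 0.74 to 1.14 FPKM. Of the 7 lncRNAs of fibroblasts, endothelium and smooth muscle 6 had values, and only MIR503HG reached that mean. MIR503HG had 7.57 and 9.13 FPKM in LM3 with JQ1, against 7.29 and 7.22 FPKM with vehicle. In HepG2 it had 2.32 and 2.29 FPKM with JQ1, against 2.28 and 1.97 FPKM with vehicle. Of the 5 neural lncRNAs 2 had values and none reached a mean of 0.5 FPKM.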

How the data were processed

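RNA depleted of ribosomal RNA was sequenced from both ends, per the labels' protocols, in 8 libraries of LM3 and HepG2 cells, grouped by line and treatment. The values are FPKM that the authors deposited in 1 table per line, per the file headers. Bowtie 0.12.2, mm8 and hg19 appear in the submitters' processing notes. The coordinates nevertheless match GENCODE release 29 on GRCh38 in chromosome, start and end for all 10 members. How fragments were counted, whether by strand, how deep each library was and where the LXLOC loci come from is not given in the sources used here. Counting error per value is thus unknown, and precision rests on the agreement of replicate libraries. Loci with a dash in place of values (7692 of 23161) were left out.

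JQ1 was compared with vehicle within each table by limma 3.58.1 (R 4.3.3, trend and robust fitting) on log2(FPKM + 0.5), over all loci averaging 0.5 FPKM or more in the line, two-sided, with Benjamini-Hochberg adjustment over those loci and a threshold of 0.05. The difference between lines was tested in 1 fit over 8 libraries. The fit was tested on simulated data. Alternatives covered the pseudocount (0.1 and 1), the filter, scaling, the loci tested, limma's options, replicate blocks and each library left out, and 1 more, summing overlapping rows, was added after the values were seen. All 10 members are named, with the 4 other HOX lncRNAs and up to 4 further loci per cluster of highest mean, any called, and the 3 loci most like each of the 3 most abundant members. The cluster windows run from the outermost HOX or EVX coding gene, extended by 20 kb on each side. The members and lists were chosen with earlier results of these data known. An LXLOC row was paired with a member where both share a strand and the overlap covers at least 0.5 of the shorter. Python 3.11.15 with pandas 2.3.3, NumPy 2.4.6 and, for plots, matplotlib 3.10.9 was used for tables.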

Additional observations from a re-analysis of the deposited data

How the results depend on the processing

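Of the 350 values of single members recomputed under an alternative, 309 kept their direction and side of the threshold, 30 lost a call, 6 gained one and 5 changed sign. A call could be lost only where a member was called as reported, 2 in HepG2 and 4 in LM3. Most of the 350 values belong to results that were not called, so the 309 say little about how firm the calls are. The count of members that fell in HepG2, 2 as reported, was 1 without the filter on low values, 1 with libraries centred on their medians, 1 with Ensembl loci alone and 4 with overlapping rows summed. In LM3 the count, 4 as reported, was 2 without the filter and between 3 and 6 under the other alternatives that keep all libraries. Leaving out 1 library gave 0 to 2 members in HepG2 and 0 in LM3, and the lone library of its group was then assumed to vary like the others. Such a fit has fewer libraries, and in LM3 it called no locus at all. The count of members that differ between the lines was 0 under every alternative run, while all loci gave 0 to 94. The 5 changes of sign were in that difference, LM3 minus HepG2, none of them called. With a pseudocount of 1 it was -0.0086 for HAGLROS, and with 1 library left out it ran from -0.11 to 0.41 for HAGLR, from -0.12 to 0.22 for HAGLROS and from -1.03 to 0.28 for HOTTIP, and the cause was not tested. Nothing in the labels says that a shared replicate number marks a shared culture or day, and with 2 libraries a group the data cannot settle whether the numbers pair the libraries. Deviations of same-numbered libraries correlated at -0.035 in HepG2 and 0.135 in LM3. With replicate numbers as a block 2 members were called in HepG2, 4 in LM3 and 0 for the difference, and in LM3 HOXA-AS2 took the place of HOXC-AS3. Depth is unknown, so how far it limits the members below 0.5 FPKM cannot be said.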
